A study of Mus musculus and Homo sapiens with 10 samples.

Results

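A set of 10 genes that mark or control the stem cell zone of the intestinal crypt was followed in maps of DNA double-strand breaks from mouse enterocytes: Lgr5, Ascl2, Olfm4, Axin2, Sox9, Smoc2, Rnf43, Znrf3, Ephb2 and Ephb3. They were taken by name from a list of crypt genes and make up 10 of the 21887 protein-coding genes that RefSeq places on chromosomes 1-19, X and Y of GRCm38.p6. All 10 were found, and together they span 775 kb. The breaks were mapped with in-suspension BLISS, in which break ends are blunted inside cells or nuclei, ligated to an adapter and sequenced, so that each counted end marks the position of a break. Of the 10 libraries of the series, the 6 used here came from enterocytes of the mouse jejunum sorted by the surface protein Cd73 (gene Nt5e) into negative, mid and high gates, with 2 libraries a gate. The other 4 were of a human cell line and were not used here. No treatment is named for the enterocytes, and the labels give no strain, genotype, age or pooling of animals. The labels number the libraries of each gate M1 and M2 (called replicates 1 and 2 here) without saying whether these are separate animals, so p-values measure only the spread between libraries, which may be technical.

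In the crypt, Wnt ligands bind Frizzled receptors and their co-receptors, which stabilises beta-catenin and lets it act with TCF factors on target genes such as Axin2. R-spondins strengthen that signal by binding Lgr5 and its relatives, which removes the ubiquitin ligases Rnf43 and Znrf3 that otherwise clear Frizzled from the membrane. Stem cells at the crypt base express these genes most, and enterocytes lose them as they climb the villus, where Cd73, an enzyme that makes adenosine from AMP outside the cell, is highest near the tip. The comparison asks whether breaks inside genes of the stem cell programme differ between enterocytes with little and with much Cd73. The maps record DNA ends and no RNA, so the labelled cell type was not checked against expressed markers here.

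The libraries differed in depth with the gate. The negative libraries held 13043514 and 12585228 break ends on the main chromosomes, the mid libraries 4757961 and 5160171, and the high libraries 1522615 and 1272771. Break ends at positions hit more than once made up 25.5% and 26.2%, 12.8% and 16.6%, and 6.32% and 6.38% of them in the same order. Levels are therefore given as EPM, break ends per 1000000 of a library's own total, or as EPM per kb of gene, and tests were run on the counts. Depth and gate cannot be told apart beyond what thinning all libraries to the shallowest shows. The number of cells behind a library is not given in the sources used here, so EPM is a share of a library and not a number of breaks per cell.

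The sequence before the start differed widely in CpG among the genes with a listed start, and 3 such sequences are shown for that reason. They are the 250 bases upstream of the start of Ascl2 (chr7:142969265-142969514, minus strand), Rnf43 (chr11:87662837-87663086, plus strand) and Olfm4 (chr14:80000052-80000301, plus strand), read 5′ to 3′ from RefSeq's GRCm38.p6 promoter sequences, with each CpG dinucleotide in capitals.
Ascl2: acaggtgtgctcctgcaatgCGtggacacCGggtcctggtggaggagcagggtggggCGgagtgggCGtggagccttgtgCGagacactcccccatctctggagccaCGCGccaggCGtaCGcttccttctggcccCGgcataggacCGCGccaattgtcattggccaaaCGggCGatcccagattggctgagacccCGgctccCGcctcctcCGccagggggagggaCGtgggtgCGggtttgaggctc
Rnf43: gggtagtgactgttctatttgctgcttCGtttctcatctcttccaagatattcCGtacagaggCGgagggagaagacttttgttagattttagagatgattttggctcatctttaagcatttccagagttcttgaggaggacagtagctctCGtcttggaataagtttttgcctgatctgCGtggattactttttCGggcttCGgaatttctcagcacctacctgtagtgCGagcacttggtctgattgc
Olfm4: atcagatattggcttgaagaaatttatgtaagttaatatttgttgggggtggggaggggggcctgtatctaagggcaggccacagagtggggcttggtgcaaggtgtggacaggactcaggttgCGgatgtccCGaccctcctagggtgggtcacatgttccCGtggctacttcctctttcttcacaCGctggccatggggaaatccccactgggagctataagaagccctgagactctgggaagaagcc
The Ascl2 sequence holds 19 CpG and is 67.6% G or C, the Rnf43 sequence holds 8 and is 44.4%, and the Olfm4 sequence holds 4 and is 54.0%. RefSeq's table listed a start for 6 of the 10 genes. The other 3 of those 6 were CpG-rich, with 24 in Axin2, 20 in Ephb2 and 16 in Ephb3.

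Break density within 1 kb on either side of these listed starts followed the same order in its extremes. It was 2.79 EPM per kb at Axin2, 2.78 at Ascl2, 2.60 at Ephb2 and 2.59 at Ephb3 as means of the 6 libraries. It was 1.13 at Rnf43 and 0.460 at Olfm4. In the single libraries Olfm4 had 0.690 and 0.556 EPM per kb in negative, 0.210 and 0.581 in mid, and 0.328 and 0.393 in the high gate. Axin2 had 2.41 and 3.46 in negative, 1.37 and 4.46 in mid, and 2.30 and 2.75 in the high gate, so that each Axin2 value lay above every Olfm4 value. Rnf43 had 1.23 and 1.11, 0.525 and 0.581, and 0.985 and 2.36 in the same order, and its range overlapped both.

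Over all 17492 listed starts the CpG count and the break density had a Spearman rho of 0.73, given as a description across genes that share the same 6 libraries. The median density was 0.287 EPM per kb in the 25% of starts with the fewest CpG (median 1) and 2.49 in the 25% with the most (median 25). Each of the 6 genes lay within the middle 50% of starts in its own range of CpG counts. The motif CTTTGA, a core that TCF factors recognise, was searched on both strands and occurs in 13.1% of all such promoter windows, but in none of the 6. TATAA, the core of the TATA box, occurs in 21.3% of windows and among the 6 only in Olfm4, 32 bases before the start on the gene's own strand. TATAA was searched on both strands too. These matches describe letters in a short window and not binding.

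**Figure D1:**
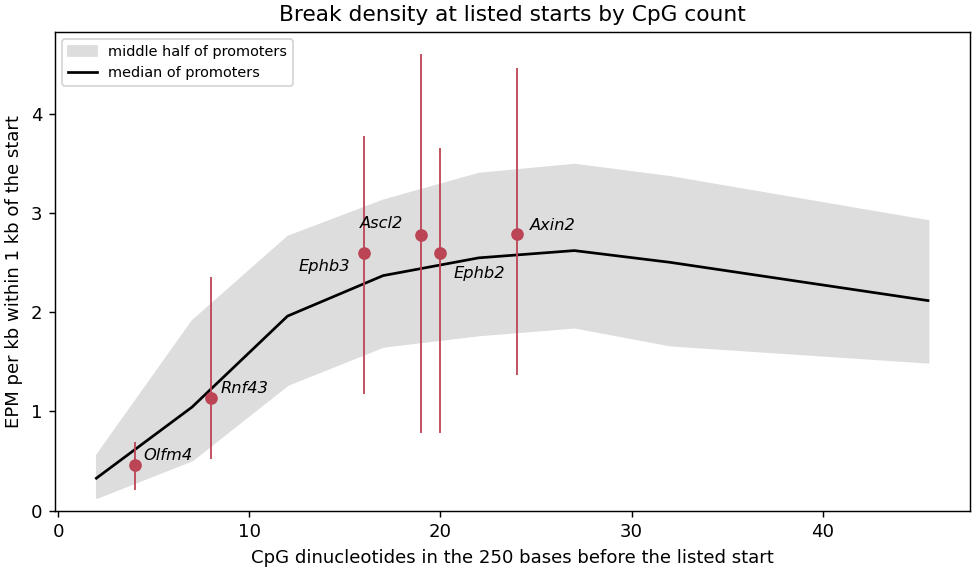
Break density within 1 kb of the listed start (EPM per kb, vertical axis) against the number of CpG in the 250 bases before it (horizontal axis). Red points are the means of the 6 libraries for 6 of the 10 genes with lines from the lowest to the highest library, the black line is the median and the grey band the middle 50% of 17492 starts in bins of CpG count; Olfm4 with 4 CpG is lowest at 0.460, and the 4 genes with 16 or more lie between 2.59 and 2.79.

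Inside the gene bodies the 10 genes ranged from percentile 28.7 to 99.8 of break density. The transcription factors Ascl2, a master regulator of crypt stem cells, and Sox9, which is made in crypt stem and progenitor cells and in Paneth cells, were the densest, with 4.09 ± 1.13 and 2.08 ± 0.43 EPM per kb (SD, n = 6 libraries). They ranked at percentiles 99.8 and 97.1 among the 17809 gene bodies with enough counts to test. These are also short genes, of 2443 and 5548 bp (chr7:142966822-142969264 and chr11:112782210-112787757). Over all tested genes density and length had a Spearman rho of -0.55, and the median density was 0.595, with 5% of genes below 0.279 and 5% above 1.70. In the negative libraries 55.7% and 61.9% of Ascl2 break ends lay at positions hit more than once. For Sox9 these were 55.0% and 53.9%, against 25.5% and 26.2% over the whole libraries. Ranks by distinct positions were not computed.

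Ascl2 had 3.61 and 5.89 EPM per kb in the negative libraries, 3.10 and 4.76 in mid, and 4.30 and 2.89 in the high gate. The library values overlapped between all gates, and the high values rest on 16 and 9 break ends. Its body was 9.58 times as dense as the 50 kb on either side of it, with a range of 6.04 to 14.03 over the libraries. Sox9 had 2.36 and 2.58 in negative, 1.36 and 2.06 in mid, and 2.25 and 1.84 in the high gate, and its body was 4.57 times as dense as its flanks. Both mid values and both high values of Sox9 lay below both negative values, while the high values overlapped the mid ones.

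The membrane and feedback genes of the Wnt pathway fell into a denser and a sparser set. Axin2, the scaffold of the beta-catenin destruction complex that Wnt signalling itself induces (chr11:108917828-108950783), had 0.914 and 1.14 EPM per kb in negative, 0.823 and 1.14 in mid, and 0.777 and 0.668 in the high gate. Both high values were the lowest of the 6. Rnf43 (chr11:87663087-87735539) had 0.739 and 0.805, 0.687 and 0.738, and 0.698 and 0.683 in the same order, a spread of 0.046 (SD) around 0.725. Its partner ligase Znrf3 (chr11:5276329-5444847) had 0.485 and 0.463, 0.469 and 0.508, and 0.444 and 0.541, and lay below the median of all genes. The R-spondin receptor Lgr5 (chr10:115450314-115587780) was the sparsest of the 10, with 0.530 and 0.479, 0.402 and 0.461, and 0.463 and 0.503, at percentile 28.7. Another annotated gene, A930009A15Rik, overlaps Lgr5, and break ends in the overlap counted for both.

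The receptor tyrosine kinases Ephb2 and Ephb3, which sort cells along the crypt axis through repulsion by ephrins, were denser than the median gene. Ephb2 (chr4:136647536-136836326) had an SD of 0.056 around 0.745 over the 6 libraries, with 0.665 and 0.798 in negative, 0.719 and 0.813 in mid, and 0.758 and 0.716 in the high gate. Ephb3 (chr16:21204620-21223309) had 1.09 and 1.26 in negative, 0.922 and 1.32 in mid, and 0.633 and 0.631 in the high gate. Both high values of Ephb3 lay below all 4 others.

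The secreted markers of crypt stem cells lay below the median gene at 0.595 EPM per kb. They were near the 0.485 EPM per kb of all tested gene bodies summed, where long genes weigh more. Olfm4, a glycoprotein (chr14:80000302-80023141), had 0.584 and 0.404 in negative, 0.488 and 0.484 in mid, and 0.460 and 0.482 in the high gate. Smoc2, a calcium-binding matrix protein (chr17:14279490-14404790), had 0.530 and 0.489, 0.538 and 0.487, and 0.451 and 0.514. In Smoc2 the values of all gates overlapped. In Olfm4 both high values lay just below both mid values, and all of these lay between the 2 negative values. Lgr5, Olfm4, Znrf3 and Smoc2 had means between 0.473 and 0.502, with SDs of 0.033 to 0.058 over the 6 libraries, so neighbours in that order did not differ beyond their spread. The bodies of these 4 genes were 0.929, 1.14, 0.985 and 0.997 times as dense as their flanks.

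**Figure D2:**
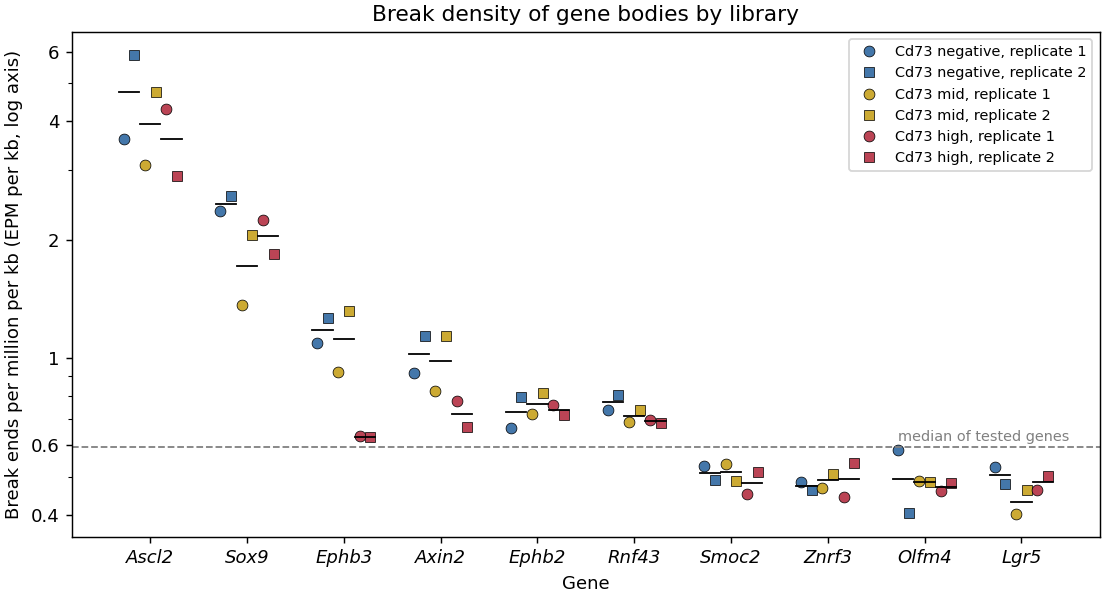
Break density of the 10 gene bodies in each of the 6 libraries (EPM per kb, logarithmic vertical axis), by gene from the densest to the sparsest. Points are libraries, coloured by Cd73 gate and shaped by replicate, short bars are the means of the 2 libraries of a gate, and the dashed line is the median of tested genes at 0.595; Ascl2 averages 4.09 and Lgr5 0.473, and the 2 high libraries of Ephb3 lie at 0.633 and 0.631.

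Breaks were not spread evenly along the genes. For the ends of genes, the 1 kb on either side of both annotated ends was summed, because the gene annotation used here has no strand. Relative to the rest of the body, this border was 2.85 times as dense in Znrf3, 2.84 in Lgr5, 2.63 in Smoc2, 1.84 in Ephb2 and 1.72 in Ephb3. The median ratio over 17458 genes was 1.89. The ratio was 0.326 in Axin2, 0.683 in Ascl2 and 0.729 in Olfm4, whose borders were sparser than the interior. A border takes in 1 kb outside the gene at each end. In Ascl2 the inner 1 kb of the ends had 4.23 and 4.02 EPM per kb and the outer 1 kb 0.980 and 1.54. Its interior, of only 443 bp, had 3.94. In Olfm4 the inner 1 kb had 0.740 at the lower-coordinate end and 0.353 at the other, against 0.477 in the interior.

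In 5 of the 10 genes a single end carried the excess. Lgr5 had 2.32 EPM per kb around its higher-coordinate end and 0.255 around the other, and Znrf3 had 2.27 and 0.493. Smoc2 had 2.27 around its lower-coordinate end and 0.240 around the other. For Ephb2 and Ephb3, whose strand is listed, the dense end was the start side, with 2.25 against 0.468 and 2.52 against 0.494. Sox9 also had a denser end, with 2.83 around its lower-coordinate end and 1.16 around the other, but its border was only 1.08 times as dense as its interior. Both ends were alike in Ascl2 (2.61 and 2.78) and Rnf43 (1.13 and 0.931), and both were sparse in Olfm4 (0.460 and 0.236). Axin2 was sparse at both annotated ends, and its listed start (108920349) lies inside the annotated body, where it had the 2.79 given above.

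**Figure D3:**
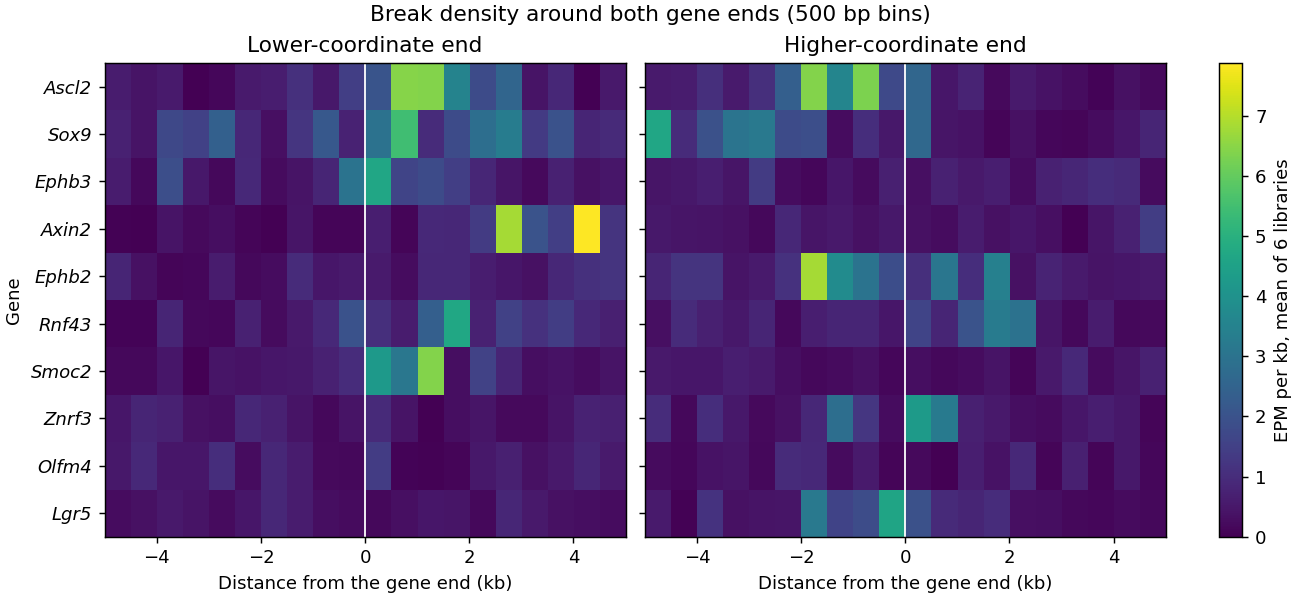
Break density in 500 bp bins (colour, EPM per kb, mean of 6 libraries) up to 5 kb on either side of the lower-coordinate (left) and higher-coordinate (right) end of each of the 10 genes; distance runs towards higher coordinates and the white line is the annotated end. Bright bins cluster at a single end in Lgr5, Smoc2 and Ephb3, inside the body of Axin2, and across all of the short gene Ascl2, while Olfm4 stays dark at both ends.

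The densest stretches recurred across the gates in most of the genes. The densest 1 kb window of the body was chosen in the negative libraries and then looked up by mean EPM over the 4 mid and high libraries, which had no part in the choice. It was again the densest there in 7 of the 10 genes: Lgr5 (138 windows), Ascl2 (3), Axin2 (33), Sox9 (6), Rnf43 (73), Ephb2 (189) and Ephb3 (19). It was the second densest in Smoc2 (126) and Znrf3 (169). Being the densest again says little where a gene has 3 or 6 windows. In Ephb3 and Ascl2 this order was close: by summed counts the Ephb3 window held 16.9% of the mid and high break ends of the body against 19.01% in the first 1 kb, and 2 windows of Ascl2 tied at 45.5%. In Ephb2 this window (chr4:136834536-136835535) lay within 2 kb of the start-side end and had 5.90 and 7.39 EPM per kb in negative, 3.78 and 6.59 in mid, and 5.25 and 4.71 in the high gate. In Axin2 (chr11:108921828-108922827) it had 3.99 and 5.32, 5.25 and 5.81, and 5.25 and 1.57. Olfm4 was the exception: its densest window in negative (22 and 8 break ends) ranked 17 of 23 in the other libraries.

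Single positions also recurred. At base 5322996 of chromosome 11, inside Znrf3, the libraries counted 12 and 15 break ends in negative, 9 and 8 in mid, and 2 and 1 in the high gate. A base inside Axin2 (chromosome 11, 108922013) had 9 and 10, 2 and 5, and 4 and 1, and a base of Lgr5 (chromosome 10, 115585905) 15 and 8, 1 and 4, and 1 and 1. These positions were named after their counts were seen. Positions found in 4 or more of the 6 libraries made up 6.57% of the distinct positions in Sox9 and 5.96% in Ascl2, against 0.938% over all tested gene bodies. That share was 1.87% in Rnf43, 1.85% in Axin2, 1.61% in Ephb3, 1.56% in Ephb2, 0.734% in Smoc2, 0.658% in Lgr5 and 0.564% in Znrf3. Sox9 and Ascl2 are also the densest of the 10 bodies, and the shares were not adjusted for density. In Olfm4 such positions were 0 of 340. So few positions, drawn from the same 6 libraries, do not place Olfm4 below the 0.938%. Whether a count is of reads or of molecules is not given in the sources used here.

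Between the gates, no body of the 10 genes passed the test. Counts were compared with edgeR's quasi-likelihood test in one fit of 6 libraries, and a Benjamini-Hochberg adjusted p under 0.05 over all genes was called. In high against negative 0 of 10 were called, against 0.00562% of all tested bodies (1 gene), and DESeq2 also called 0 of them. One of the 10 (Ephb3) had an unadjusted p under 0.05, against 8.75% of all bodies. In mid against negative 0 of 10 were called (0% of all bodies) and 1 (Sox9) had an unadjusted p under 0.05 (3.16% of all). In high against mid 0 of 10 were called (0% of all) and 1 (Ephb3) had an unadjusted p under 0.05 (4.51% of all), and DESeq2 called 0 in both. In the counts as scaled for the test, the libraries of the gates did not overlap in 4 of 10 genes in each of the 3 comparisons. Over all bodies this held for 42.1%, 30.9% and 33.8%, so the shares of the 10 are near the background. The EPM per kb given above lack that scaling, and single genes differ there. In high against negative Sox9 overlapped only in the scaled counts, and Ephb2 only in EPM per kb. The 3 comparisons share libraries.

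The median log2 fold change of the 10 bodies in high against negative was 0.00, with 5 of 10 above 0, beside a median of 0.00 and 49.7% above 0 over all tested genes. In mid against negative it was -0.01 with 4 of 10 above 0 (all genes 0.00 and 50.6%). Summed over all 10 bodies the density was 0.627 and 0.662 EPM per kb in negative, 0.591 and 0.662 in mid, and 0.593 and 0.608 in the high gate. The high values lay below the negative ones and overlapped the mid ones. All tested bodies together did likewise against negative, with 50.2% and 51.3% of a library's break ends in negative and 49.0% and 48.2% in the high gate. The smallest p that an exact permutation of 2 against 2 libraries can give is 0.333, so single values such as this were not tested.

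Ephb3 had the lowest high against negative value of the 10. Its counts were 266 and 297 in the negative libraries, 82 and 127 in mid, and 18 and 15 in the high gate. Scaled to CPM (the count per 1000000 break ends in tested bodies, after TMM scaling of the library), these are 42.4 ± 2.86, 41.7 ± 8.60 and 24.9 ± 0.305 (SD, n = 2 each). The log2 fold change in high against negative was -0.77 (SE 0.26), with an adjusted p of 0.381 by edgeR over 17809 genes, and the value lies outside the -0.72 to 0.51 that hold the middle 90% of genes. In high against mid it was -0.76 (SE 0.28, adjusted p = 0.9998), and in mid against negative -0.01 (SE 0.16, adjusted p = 0.998). The 18 and 15 break ends alone allow 7.01 to 18.7 and 6.60 to 19.4 EPM (exact 95% Poisson intervals, counting error only). The negative libraries, at 20.4 and 23.6 EPM, have intervals of 18.0 to 23.0 and 21.0 to 26.4. The interval of the first negative library overlaps both high ones.

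The lower Ephb3 share in the high gate was seen in each of 3 parts of the body, described here without a test since the gene was singled out for its value. The parts add up to that value, so they are not separate evidence. The first 1 kb of the body had 3.22 and 3.73 EPM per kb in negative and 1.31 and 2.36 in high, a ratio of 0.528 between the means. Those high values rest on 2 and 3 break ends. The window that was densest in negative, 10 kb into the gene (chr16:21214620-21215619), had 3.91 and 5.64 in negative and 3.28 and 2.36 in high, a ratio of 0.591 for a window chosen in negative. Its high values rest on 5 and 3 break ends. All other windows together had 0.795 and 0.852 in negative and 0.433 and 0.424 in high, a ratio of 0.520, with 11 and 9 break ends in high. Of 19 windows 16 had a lower mean in high than in negative. The last 1 kb of the body went the other way, with means of 0.236 in negative and 0.657 in high, where it held 2 and 0 break ends. With all libraries thinned to 1272771 break ends the log2 fold change of the whole Ephb3 body was -0.79 (SE 0.33), and with each position counted once it was also -0.79 (SE 0.26). Over all tested genes the high against negative fold change and the density in the mid libraries had a Spearman rho of -0.43, so denser genes tended to have lower values in high. Ephb3 was at percentile 81.8 of density, and the part of density in its value was not tested. In sorted bulk libraries, fewer cells with a break in a gene and fewer breaks in each cell cannot be told apart.

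**Figure D4:**
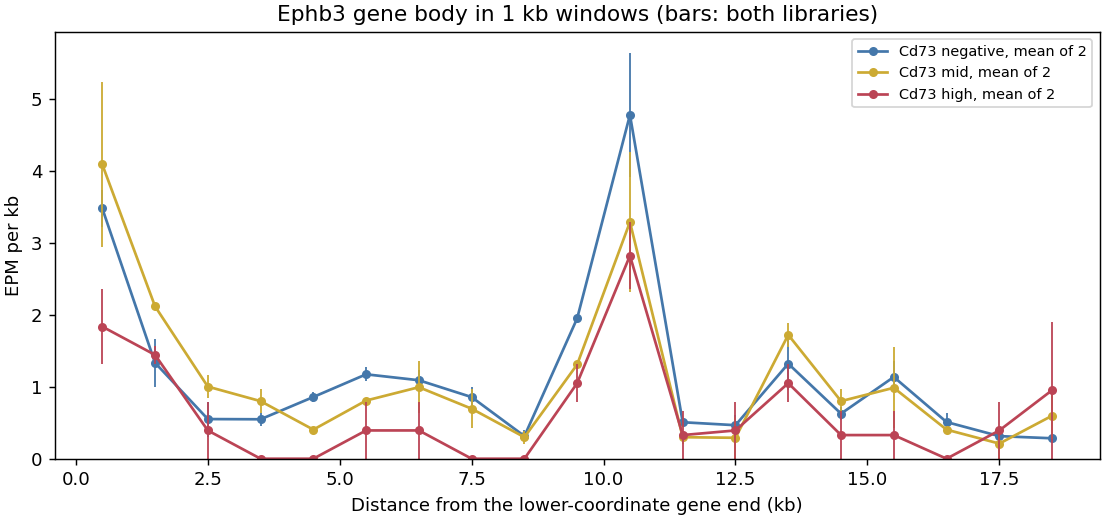
Break density along the Ephb3 body in 1 kb windows (EPM per kb) against the distance from its lower-coordinate end, which is its start side. Lines are the means of 2 libraries of each Cd73 gate and vertical bars span both libraries; the densest window in negative reaches 4.78 in negative and 2.82 in high, and single windows of the high libraries rest on few break ends.

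Axin2 came next in size. Its 393 and 471 break ends in negative, 129 and 194 in mid, and 39 and 28 in the high gate gave 65.0 ± 7.62, 64.5 ± 12.0 and 50.1 ± 4.66 CPM. Its log2 fold change was -0.37 (SE 0.20, adjusted p = 0.613 by edgeR) in high against negative and -0.36 (SE 0.21, adjusted p = 0.9998) in high against mid, where it was -0.54 without the first mid library and -0.16 without the second. The high libraries did not overlap the others, but the difference is less than 2 SE. Sox9 was 26.4 ± 0.68 CPM in the negative gate, 18.9 ± 4.64 in mid and 23.9 ± 3.03 in high. Its mid against negative value was -0.47 (SE 0.21, adjusted p = 0.998 by edgeR), and it was -0.25 without the first mid library, -0.76 without the second and -0.17 with each position counted once.

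The other 7 bodies had values within 0.25 of 0 in all 3 comparisons. Lgr5 was 134 ± 14.4 CPM in the negative gate, 119 ± 6.21 in mid and 140 ± 10.1 in high, with log2 fold changes of 0.06 (SE 0.15) in high against negative and -0.17 (SE 0.12) in mid against negative, the latter -0.057 and -0.28 without the first and the second negative library. Ephb2, with the most break ends of the 10, had 1638 and 1895 in negative, 646 and 792 in mid, and 218 and 172 in the high gate, and a high against negative value of 0.14 (SE 0.13), or 0.048 without the first negative library and 0.23 without the second. The related receptor Ephb3 thus differed from Ephb2 in sign, but the difference between the 2 genes was not tested. The ligases Rnf43 and Znrf3 had -0.03 (SE 0.16) and 0.17 (SE 0.14), and Znrf3 was at 0.32 without the first high library and at 0.012 without the second. Olfm4 and Smoc2 had 0.05 (SE 0.31) and 0.04 (SE 0.15), and Ascl2 had -0.25 (SE 0.33).

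At the borders 8 of the 10 genes had enough counts to test, and Olfm4 and Axin2 fell below the filter, with 2 and 2 and with 2 and 0 break ends in the high libraries. In high against negative 0 of 8 were called (0% of 16221 borders) and 0 had an unadjusted p under 0.05 (6.22% of all). In mid against negative 0 of 8 were called (0% of all) and 2 had an unadjusted p under 0.05 (4.96% of all). In high against mid 0 of 8 were called (0% of all) and 0 had an unadjusted p under 0.05 (4.82% of all). DESeq2 called 0 in all 3 comparisons. In the scaled counts the gates did not overlap in 1, 3 and 2 of the 8 genes, against 41.2%, 35.8% and 36.2% of all borders.

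The 2 borders with an unadjusted p under 0.05 were those of Lgr5 and Ephb3. The Lgr5 border had 79 and 97 break ends in negative, 12 and 27 in mid, and 6 and 7 in the high gate, and its mid against negative value was -0.63 (SE 0.27, adjusted p = 0.949 by edgeR). Without the first mid library, which had the 12, it was -0.36, and without the second -1.09. The Ephb3 border had 65 and 89, 32 and 43, and 9 and 4, and its mid against negative value was 0.51 (SE 0.23, adjusted p = 0.949). In high against negative the Ephb3 border was at 0.02 (SE 0.43), although it had 1.51 EPM per kb in negative and 1.13 in high. Border CPM are relative to all borders, which held 8.82% and 10.4% of break ends in negative, 7.37% and 9.38% in mid, and 7.51% and 6.97% in the high gate. The values of Ephb3 in bodies and borders are thus on scales of their own.

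**Figure D5:**
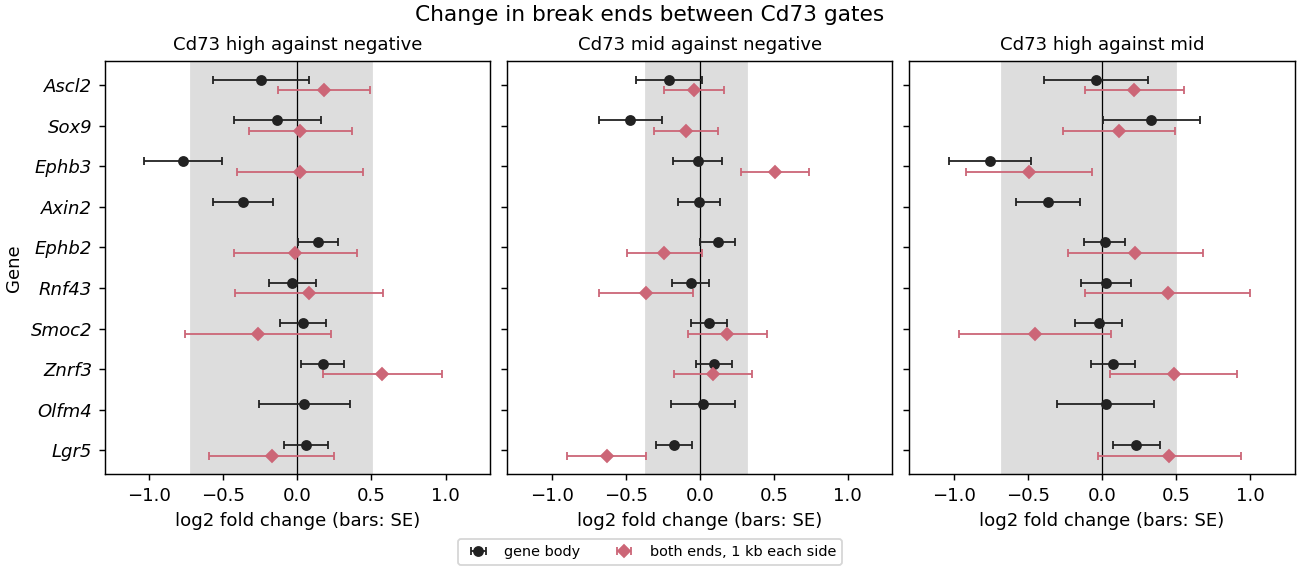
Log2 fold changes of break ends between Cd73 gates for the 10 genes (horizontal axis), in high against negative, mid against negative and high against mid. Black circles are gene bodies and red diamonds both gene ends with 1 kb on each side, bars are SEs and the grey band holds the middle 90% of all tested gene bodies; Ephb3 bodies lie at -0.77 and -0.76 in the first and last panels, and no value passed the adjusted threshold.

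Other genes of the pathway were taken from fixed lists of names. In high against negative 0 of 9 Wnt ligands and R-spondins, 0 of 12 Wnt receptors, 0 of 13 genes of the destruction complex and its transducers, 0 of 11 TCF and beta-catenin nuclear factors and 0 of 14 Wnt inhibitors and further targets were called by edgeR or DESeq2. The same held for 0 of 19 further crypt stem cell genes and 0 of 15 further Eph receptors and ephrins. In the same order 1, 0, 0, 1, 3, 0 and 5 of them had an unadjusted p under 0.05, against 8.75% of all bodies (0.00562% called). Their median log2 fold changes were -0.07, -0.07, -0.10, 0.01, -0.03, -0.08 and -0.05, beside 0.00 for all genes.

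Single members of these lists are named by their unadjusted p, though not all with a small one are printed. Wnt11, a ligand of the beta-catenin independent branch, had 65.8 ± 18.6 CPM in the negative gate, 59.5 ± 8.51 in mid and 41.3 ± 1.64 in high, a high against negative value of -0.67 (SE 0.21, adjusted p = 0.324 by edgeR). Sp5, a direct Wnt target, had 21.4 ± 3.40, 19.4 ± 10.3 and 10.6 ± 1.497, a value of -1.02 (SE 0.39, adjusted p = 0.407). Wif1, which binds and blocks Wnt ligands, had 63.8 ± 4.61, 66.0 ± 1.85 and 89.2 ± 5.55, a value of 0.49 (SE 0.18, adjusted p = 0.394). The receptor Ephb1 had 291 ± 26.4, 328 ± 26.4 and 381 ± 12.3, a value of 0.39 (SE 0.13, adjusted p = 0.365). Bmi1, a marker of reserve stem cells, had 19.8 ± 3.95, 16.4 ± 3.47 and 11.9 ± 2.59, a value of -0.72 (SE 0.38, adjusted p = 0.597). Bcl9l and Efna5 had -0.44 (SE 0.18, adjusted p = 0.445 by edgeR) and 0.37 (SE 0.14, adjusted p = 0.406). Of the 5 Eph and ephrin genes with an unadjusted p under 0.05 by edgeR, Ephb1 and Efna5 were the 2 higher ones. The other 3, not printed, were lower, and 7 of the 15 in that list had values above 0. None of the genes named passed the threshold in this fit. Sp5, Wnt11 and Bmi1, lower in high, had 3.09, 1.42 and 0.837 EPM per kb, and Wif1 and Ephb1, higher in high, 0.542 and 0.382. Over all tested genes denser ones tended to have lower values in high (Spearman rho -0.43), and its part in these values was not tested. Nt5e, the gene of the sorting marker, had 51.2 ± 0.101, 70.5 ± 2.30 and 77.8 ± 17.8, a value of 0.62 (SE 0.19, adjusted p = 0.324). It is 1 of 11 enterocyte markers, of which 5 had values above 0, with a median of -0.05, and 3 higher and 3 lower values had an unadjusted p under 0.05.

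The lists of other cell types were measured in the same way, as breaks in marker genes and not their expression. In high against negative 5 of 6 lymphocyte markers and 4 of 5 tuft cell markers had values above 0, with medians of 0.45 and 0.31, and 0 of either list were called. Paneth, goblet, enteroendocrine and stromal lists had 2 of 3, 3 of 5, 2 of 6 and 2 of 5 tested members above 0, and 0 were called by edgeR. Their medians were 0.34, 0.02, -0.12 and -0.01, so the Paneth median lay above that of the tuft list. The part of these cell types in the values of the 10 genes was not tested.

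The genes whose break counts over the 6 libraries were most like the mean of the 10 were Zmynd8, Pepd and Igsf3, with Pearson correlations of log2 CPM of 0.963, 0.960 and 0.951. They were the highest of 3136 genes at least as high as the median of the 10, of which 10 were above 0.9. This is a description over 6 libraries that share their depth pattern.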

How the data were processed

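Each deposited file holds 1 library: positions on GRCm38, each with its raw count of break ends and no strand. Reads were aligned with BWA, per the submitters' processing notes; its version, mapping filters and duplicate handling are not given here. The 10 genes and the other lists were chosen with earlier results of these data known. Counts were summed over RefSeq gene bodies (3841 of 21887 overlap another) and over 1 kb on either side of both gene ends. All 6 libraries entered one fit of 3 groups in edgeR 4.0.16 under R 4.3.3, with TMM scaling, its filterByExpr filter and the quasi-likelihood F test, adjusted over all genes tested (17809 bodies, 16221 borders). The script was tested on simulated data. Named genes were the 10, list members past the threshold, otherwise the 2 with the smallest unadjusted p in high against negative in each list (not all are printed), and the 3 with the likest pattern. Alternatives were scaling by library size, DESeq2 1.42.0, counting each position once, dropping the filter, thinning, a replicate block, each library left out, other regions, and listed starts, which were added after the files were seen. Intervals cover counting error only. Other work used Python 3.11.15.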

Additional observations from a re-analysis of the deposited data

How the results depend on the processing

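The 54 member results gave 723 alternative values, of which 626 kept their direction and 0 were called; the lowest adjusted p was 0.165 (Ephb3 bodies, high against negative, with the replicate block). Of the 33 results that changed sign under any alternative, 32 lay within 1 SE of 0, and the cause was not tested. Depth limits the high libraries most: borders there rest on few break ends, and only 1272771 break ends a library remain after thinning. Same-numbered libraries deviated from their gate means with correlations of 0.35 (negative and mid), -0.05 (negative and high) and -0.05 (mid and high). The main fit did not take the numbers to pair the libraries of all gates. The labels leave pairing open, and negative and mid deviated together. The high libraries are shallow, so their correlations cannot show that pairing is absent. In mid against negative 563 bodies had an unadjusted p under 0.05 by edgeR in the main fit and 1440 with the replicate block. There the Sox9 body was at -0.47 (SE 0.18, adjusted p = 0.471). With the replicate block 44 bodies were called in high against negative (39 higher, 5 lower) and 4 in mid against negative, among the former, of all listed genes, only Ephb1 (0.39, SE 0.10, adjusted p = 0.0442 by edgeR) and none of the 10.

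Over all bodies, high against negative called 0 genes without a filter or with thinned libraries and 0 to 2 with each library left out, and mid against negative called 1 with each position once. Borders of 500 bp called 1 in high against negative and 1 in high against mid, and borders of 2 kb called 1 in high against negative. The log2 fold changes of the 10 genes that changed sign follow. With library size scaling they were, in bodies, Lgr5 -0.0026, Olfm4 -0.012 and Smoc2 -0.023 (high against negative) and Olfm4 -0.012, Rnf43 -0.0098 and Ephb2 -0.018 (high against mid), and 0.0003 at the Ephb2 border (high against negative). With each position counted once they were Ascl2 0.012, Olfm4 -0.015 and Sox9 0.24 (bodies, high against negative), Ascl2 0.033, Olfm4 -0.017, Axin2 0.084 and Ephb3 0.077 (bodies, mid against negative), and Znrf3 -0.0019 (borders, mid against negative). With thinned libraries they were Olfm4 -0.046, Sox9 0.20 and Smoc2 -0.015 (bodies, high against negative), Ascl2 0.21, Olfm4 -0.27, Axin2 0.24, Smoc2 -0.13 and Ephb3 0.26 (bodies, mid against negative), Smoc2 0.11, Rnf43 -0.0063 and Ephb2 -0.013 (bodies, high against mid), Ascl2 0.38 and Sox9 0.41 (borders, mid against negative), and Ephb2 -0.20 (borders, high against mid). Without the first and last 1 kb of the body they were Olfm4 -0.056 and Smoc2 -0.0062 (high against negative) and Ascl2 0.062, Olfm4 -0.14, Rnf43 -0.023 and Ephb2 -0.012 (high against mid). With the replicate block they were Ascl2 0.0039 and Olfm4 -0.0078 (bodies, high against mid). Without a filter the Sox9 and Ephb3 borders were at -0.0465 and -0.051 (high against negative). Borders of 2 kb gave Rnf43 -0.0502 (high against negative) and Znrf3 -0.096 (mid against negative), and borders of 500 bp gave Znrf3 -0.013 (mid against negative) and Ephb2 -0.68 (high against mid). Listed starts, chosen after seeing the data, gave Ephb3 -0.33 (high against negative) and Ephb2 -0.11 (high against mid).

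With each library left out in turn, the bodies in high against negative ranged from -0.052 to 0.17 in Lgr5, -0.57 to 0.10 in Ascl2, -0.23 to 0.38 in Olfm4 and -0.073 to 0.15 in Smoc2. In mid against negative they ranged from -0.51 to 0.14 in Ascl2, -0.25 to 0.36 in Olfm4, -0.22 to 0.17 in Axin2, -0.057 to 0.17 in Smoc2 and -0.26 to 0.17 in Ephb3. In high against mid they ranged from -0.36 to 0.26 in Ascl2, -0.031 to 0.074 in Olfm4, -0.14 to 0.091 in Smoc2, -0.086 to 0.23 in Znrf3 and -0.0285 to 0.0602 in Ephb2. Borders in high against negative ranged from -0.48 to 0.063 in Lgr5, -0.54 to 0.52 in Ascl2, -0.061 to 0.035 in Sox9, -1.77 to 0.54 in Smoc2, -0.99 to 0.75 in Rnf43, -1.10 to 0.45 in Ephb2 and -0.55 to 0.29 in Ephb3. In mid against negative they ranged from -0.21 to 0.16 in Ascl2, -0.41 to 0.099 in Sox9, -0.078 to 0.46 in Smoc2, -1.04 to 0.20 in Rnf43 and -0.15 to 0.24 in Znrf3. In high against mid they ranged from -0.49 to 0.57 in Ascl2, -0.12 to 0.39 in Sox9, -1.95 to 0.37 in Smoc2, -0.61 to 1.12 in Rnf43 and -0.85 to 0.70 in Ephb2. Where this left a gate with 1 library, that library was assumed to vary like the others.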
